A study of Mus musculus with 24 samples.

Results

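The cytochrome P450 genes of families 1 to 3 encode haem enzymes that oxidise drugs, steroids, fatty acids and other small molecules. They were taken here as the protein-coding genes whose symbol is Cyp, a single digit from 1 to 3 and a letter. This rule found 62 of the 55469 genes in the table, and 25 pseudogenes with a matching symbol were not counted as members. RNA was sequenced from the livers and brains of male C57BL/6N mice aged 10 weeks, either wild type (WT) or homozygous for the germline deletion of one phenylalanine tRNA gene (the tRNA-Phe-1-1-/- line, the tRNA-Phe-2-1-/- line or the line tRNA-Phe-3-1-/-), with 3 replicates (A, B and C) of each of the 4 genotypes in each tissue. Each line carries its deletion in every cell from conception, and the mice received chow and no drug. The deleted tRNA genes were not analysed here, so the genotype labels were not checked against them.

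Most enzymes of these families sit in the membrane of the endoplasmic reticulum and receive electrons from P450 oxidoreductase. The liver holds the largest amounts, mainly in the hepatocytes around the central vein. Many of these genes are switched on by nuclear receptors that sense foreign compounds and bile acids, CAR and PXR for the Cyp2b, Cyp2c and Cyp3a genes and the aryl hydrocarbon receptor (AhR) for the Cyp1 genes. Others, such as Cyp2b9, Cyp2a4 and Cyp2d9, are known for different levels in male and female mice.

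Values are normalised read counts, which are read estimates divided by one size factor per sample. The depth was 32276896 to 51584522 reads in the livers and 30365760 to 46225360 in the brains, so 3 reads corresponded to 2.40 to 3.89 normalised counts in a liver. Of the 62 members, 41 reached a mean of 10 normalised counts over the livers and were tested, 21 were lower and 9 of these 21 had no read in any liver. Hepatocyte markers such as Alb were high in every liver and neuronal markers in every brain. Single livers stood apart from their group. Among the 41 tested members, WT replicate A lay at least 1 log2 unit from both other replicates of its group for 7 members, tRNA-Phe-1-1-/- replicate B for 8, tRNA-Phe-3-1-/- replicate C for 8 and tRNA-Phe-3-1-/- replicate A for 6. tRNA-Phe-1-1-/- replicate B was the lowest of its group for 27 members. Results that rest on one of these livers are given with and without it.

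Transcripts of these 62 genes together made up a smaller part of the liver RNA in tRNA-Phe-1-1-/- mice than in WT mice, while without Cyp3a11 the groups overlapped. Their summed share of all normalised counts ran from 1.22% to 1.32% in the 3 WT livers and was 0.968%, 0.672% and 1.10% in the 3 tRNA-Phe-1-1-/- livers, which did not overlap. Without Cyp3a11 the shares were 0.983%, 0.835% and 0.859% in WT and 0.918%, 0.619% and 1.07% in tRNA-Phe-1-1-/- livers. With it the sum was 1.44% ± 0.0393 (SD, n = 3) in tRNA-Phe-2-1-/- livers and ran from 1.21% to 1.76% in tRNA-Phe-3-1-/- livers. These shares are given without a test, since an exact permutation test of 3 against 3 samples cannot give a two-sided p below 0.1. Cyp3a11, the mouse counterpart of the main human drug-oxidising enzyme, gave 30.0% ± 9.28 of the P450 counts in WT livers and 5.37% ± 2.33 in tRNA-Phe-1-1-/- livers. Its share was 20.0% ± 2.29 in tRNA-Phe-2-1-/- livers. In the tRNA-Phe-3-1-/- group the share ran from 2.86% in replicate C to 33.2% in replicate A. Cyp2e1, which oxidises ethanol and paracetamol, was the most abundant member in all 3 tRNA-Phe-1-1-/- livers, all 3 tRNA-Phe-2-1-/- livers and tRNA-Phe-3-1-/- replicate C, whereas Cyp3a11 was the most abundant in all 3 WT livers. In bulk RNA, fewer cells of a type and less RNA per cell cannot be told apart.

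**Figure D1:**
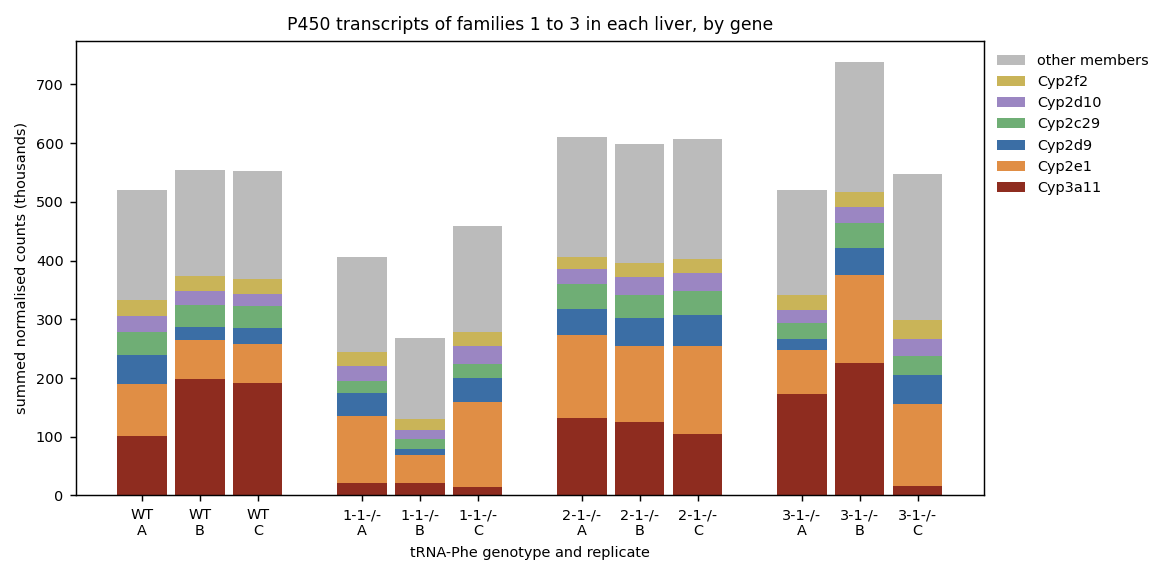
Summed normalised counts of the P450 genes of families 1 to 3 in each of the 12 livers (y axis, normalised counts divided by 1000; x axis, genotype and replicate), split by the 6 members with the largest sums and all other members together. The Cyp3a11 segment is short in the 3 tRNA-Phe-1-1-/- livers and in tRNA-Phe-3-1-/- replicate C, where it gave 2.86% of the P450 counts.

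Per kilobase of exon, the order of levels in WT livers began with Cyp3a11 at 31480 ± 10539 normalised counts per kilobase (SD, n = 3) and Cyp2e1 at 25985 ± 4786. Their means differed by less than the SD of Cyp3a11. Cyp2c29, an arachidonic acid epoxygenase, followed at 11651 ± 283 and Cyp2d9, the testosterone 16-alpha-hydroxylase of male mice, at 11462 ± 5071, and this pair was again closer than the spread of Cyp2d9. Cyp2f2, known for the oxidation of naphthalene, stood at 7864 ± 400 per kilobase and Cyp2d26 at 7764 ± 868. Cyp2c67 at 6079 ± 1211 and Cyp2c70, which makes the muricholic bile acids of mice, at 5174 ± 717 completed the 8 highest, and their difference was also smaller than the larger SD.

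In tRNA-Phe-1-1-/- livers 13 of the 41 tested members fell against WT and 1 rose (limma on log2(normalised count + 1), adjusted p below 0.05 over all genes tested). Over all 15856 genes tested, 9.08% were called lower and 8.27% higher. The median log2 fold change was -0.27 over the 41 members and -0.01 over all genes, and 30 of the 41 values were below 0. The 13 that fell were Cyp2b9, Cyp2b10, Cyp2c55, Cyp3a59, Cyp3a11, Cyp3a25, Cyp2j9, Cyp2c29 and Cyp2u1, together with Cyp2a22, Cyp2c38, Cyp2j5 and Cyp2r1, which the rule for named genes did not choose and which are named because their values were seen. Cyp3a13 rose. The calls were unevenly spread over the subfamilies, with 4 of 4 tested Cyp3a genes, 2 of 2 Cyp2b, 3 of 13 Cyp2c, 2 of 3 Cyp2j, 1 of 4 Cyp2a and none of 7 Cyp2d. By position they comprised 4 of 4 tested members on chromosome 5, 4 of 10 on chromosome 7, 3 of 13 on chromosome 19, 2 of 3 on chromosome 4, 1 of 1 on chromosome 3 and none of 7 on chromosome 15.

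**Figure D2:**
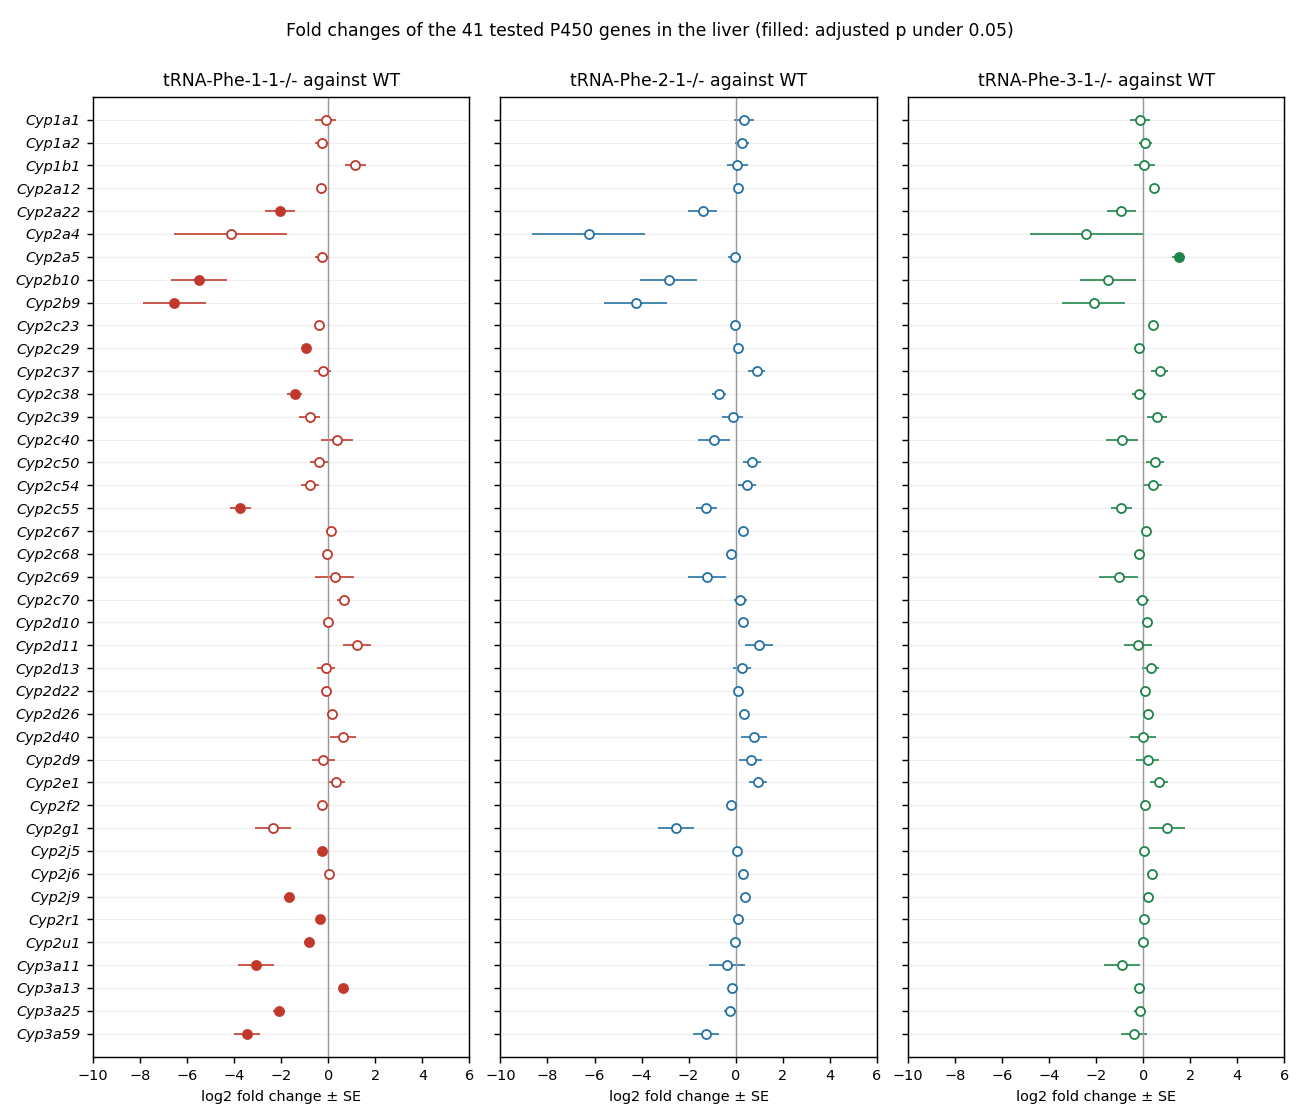
Log2 fold changes of the 41 tested P450 genes in the liver against WT, 1 panel per knockout line (points with bars of 1 SE, on the log2(normalised count + 1) scale; filled points passed the threshold). The 14 filled points of the tRNA-Phe-1-1-/- panel lie between -6.54 and 0.64, the tRNA-Phe-2-1-/- panel has no filled point, and Cyp2a5 is the single filled point of the tRNA-Phe-3-1-/- panel.

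The Cyp3a genes encode the enzymes that handle the widest range of drugs and steroids, and 9 of them were members. The 4 that were tested lie on chromosome 5, with Cyp3a11, Cyp3a25 and Cyp3a59 close together between 145854607 and 146114978 and Cyp3a13 apart from them at 137892933 to 137925610 (RefSeq, GRCm38.p6). The 3 neighbours fell and Cyp3a13 rose. The 250 bases before a RefSeq transcript start of each of the 3 neighbours are shown because these genes fell together. For Cyp3a25 and Cyp3a59 that start lies inside the outer limits of the gene, and 26 and 50 bases of their windows overlap the annotated gene. They were read from RefSeq for GRCm38.p6 and written 5′ to 3′ on the strand of the gene, with capitals marking the nuclear receptor half-site AGGTCA or its reverse complement TGACCT. They come from chr5:145879855-145880104 (minus strand), chr5:146009619-146009868 (minus strand) and chr5:146079008-146079257 (plus strand).
Cyp3a11: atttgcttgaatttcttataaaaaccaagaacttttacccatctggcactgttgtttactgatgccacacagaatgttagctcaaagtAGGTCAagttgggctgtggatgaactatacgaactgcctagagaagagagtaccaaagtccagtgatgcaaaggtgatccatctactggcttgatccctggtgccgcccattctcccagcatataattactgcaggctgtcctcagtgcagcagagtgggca
Cyp3a25: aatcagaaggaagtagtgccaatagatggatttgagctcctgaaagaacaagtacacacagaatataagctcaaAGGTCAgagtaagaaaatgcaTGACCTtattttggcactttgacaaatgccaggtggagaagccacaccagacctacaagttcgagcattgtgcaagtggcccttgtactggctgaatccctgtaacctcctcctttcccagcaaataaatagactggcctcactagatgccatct
Cyp3a59: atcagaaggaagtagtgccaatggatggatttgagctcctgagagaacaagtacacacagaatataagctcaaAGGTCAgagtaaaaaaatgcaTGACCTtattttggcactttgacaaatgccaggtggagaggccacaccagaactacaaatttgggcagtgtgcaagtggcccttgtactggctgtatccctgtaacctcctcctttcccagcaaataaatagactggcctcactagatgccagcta
The half-site occurs 1 time in the Cyp3a11 sequence and 2 times in each of the others. In the last pair the matches stand on opposite strands, and 94.8% of the aligned positions of the 2 sequences are identical, against 54.3% between Cyp3a11 and Cyp3a25. A match is a description of letters and not a binding site. The half-site was found in the same window of 13.8% of 27025 genes, of 15 of the 53 members with a promoter sequence and of 9 of the 35 of these that were tested in the liver. The TATA sequence TATAAA was in 25 of the 53 and in 13.0% of all genes, and TTATGTAA, a sequence bound by factors of the Dbp family, in none of the 53 and 0.862% of all. GCGTG, the core of the AhR site, was in 9 of the 53 and 28.2% of all. All 4 motifs were searched on both strands.

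Cyp3a11 had 100659, 198756 and 192332 normalised counts in the WT livers and 20832, 20953 and 14579 in the tRNA-Phe-1-1-/- livers. The highest tRNA-Phe-1-1-/- liver lay far below the lowest WT liver. The log2 fold change was -3.08 ± 0.76 (SE, adjusted p = 0.0178), or 8.46-fold lower. Without WT replicate B or WT replicate C the value was -2.91 or -2.93 and no longer passed (adjusted p = 0.0593 and 0.0653). The tRNA-Phe-2-1-/- livers had 131947, 125730 and 105387 and the tRNA-Phe-3-1-/- livers 173092, 225447 and 15662, so that replicate C of the last group lay among the tRNA-Phe-1-1-/- livers. The comparison of tRNA-Phe-1-1-/- with tRNA-Phe-3-1-/- gave -2.20 ± 0.76 (adjusted p = 0.0706) and, without that liver, -3.41 (adjusted p = 0.000337). The liver left out stands apart by this same count, so the fit without it cannot decide on a difference.

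Cyp3a25, a further hepatic member of the subfamily, had 16932, 24226 and 22922 normalised counts in WT livers, set against 5617, 3357 and 6306 in tRNA-Phe-1-1-/- livers. The lowest liver of the other 3 groups, tRNA-Phe-3-1-/- replicate C, had 13093. The log2 fold change against WT was -2.10 ± 0.27 (adjusted p = 0.000573), and the gene was also called against each of the other lines. Cyp3a59 had 497, 1729 and 1519 in WT and 94.1, 118 and 87.0 in tRNA-Phe-1-1-/- livers, a log2 fold change of -3.45 ± 0.55 (adjusted p = 0.00191). In the tRNA-Phe-2-1-/- livers it stood at 369 to 547, around the level of WT replicate A and below the other WT livers. About 5.60% of the 100-base windows of the Cyp3a59 transcripts also occur in Cyp3a25, so a small part of their reads could be divided between them.

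Cyp3a13, which is known as the main Cyp3a gene of the intestine, went the other way. It had 3852, 5151 and 4160 normalised counts in WT livers, set against 7590, 6411 and 6474 in tRNA-Phe-1-1-/- livers. All 3 tRNA-Phe-1-1-/- livers stood above all 9 others, of which the highest was WT replicate B. The log2 fold change was 0.64 ± 0.12 against WT (adjusted p = 0.00504), 0.80 against tRNA-Phe-2-1-/- and 0.82 against tRNA-Phe-3-1-/- (adjusted p = 0.00174 and 0.00163). The 5 members of the subfamily that were not tested stayed under a mean of 10. Among these was Cyp3a41a, a gene of female mice, with 2.93 to 9.08 in WT livers and 0 to 1.88 in tRNA-Phe-1-1-/- livers, values near the limit of 3 reads. About 90.8% of its windows occur in other P450 genes, mostly in Cyp3a41b, so the values of this pair are uncertain.

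**Figure D3:**
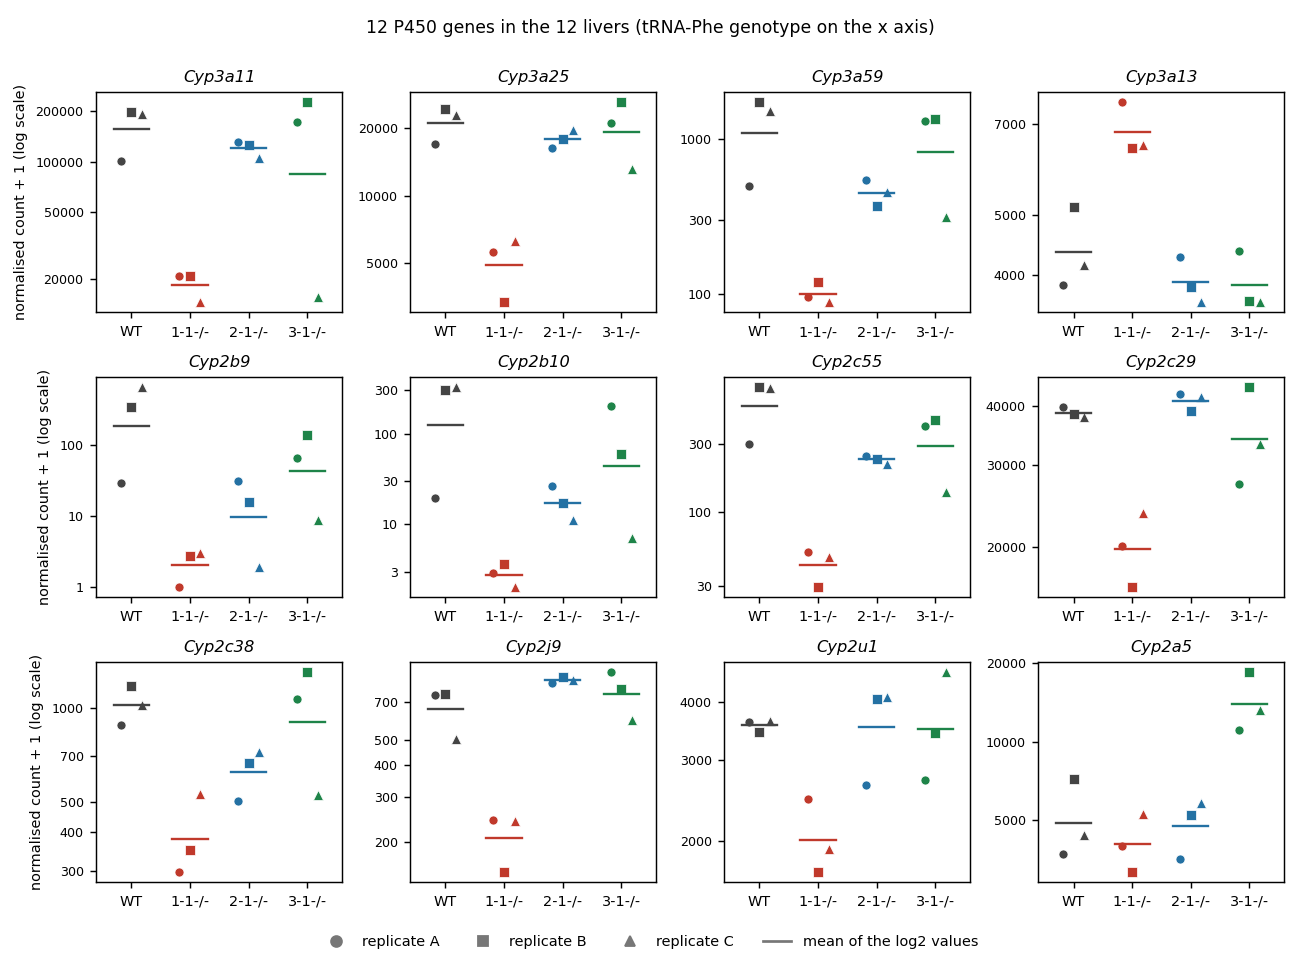
Normalised counts + 1 of 12 P450 genes in the 12 livers, 1 panel per gene (y axis logarithmic with its own range; x axis, tRNA-Phe genotype; points, replicates; lines, means of the log2 values, n = 3). In the panels of Cyp3a11 to Cyp3a59 the tRNA-Phe-1-1-/- livers lie lowest apart from tRNA-Phe-3-1-/- replicate C for Cyp3a11, in the Cyp3a13 panel they lie highest, and the tRNA-Phe-3-1-/- livers lie highest for Cyp2a5, at 11125 to 18462.

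Of the 5 Cyp2b members, Cyp2b9 and Cyp2b10 were tested, and both were almost without reads in tRNA-Phe-1-1-/- livers. Cyp2b10, a classical target of CAR (chromosome 7, 25897658 to 25926624), had 2, 3 and 1 reads in these livers. In the WT livers it had 18.6, 304 and 322 normalised counts. The fitted log2 fold change, -5.49 ± 1.20 (adjusted p = 0.00975), depends on the pseudocount and moved from -6.06 with a pseudocount of 0.1 to -4.29 with 5, past the threshold each time. Cyp2b9, a gene of female mice, had 29, 351 and 507 reads in the WT livers and 0, 2 and 2 in tRNA-Phe-1-1-/- livers, and its fitted value moved from -7.98 to -5.00 in the same way. In the other lines Cyp2b10 was at 10.1 to 25.6 (tRNA-Phe-2-1-/-) and at 6.03 to 201 normalised counts (tRNA-Phe-3-1-/-), and both overlapped WT. Cyp2b9 was at 0.922 to 30.4 (tRNA-Phe-2-1-/-) and at 8.04 to 142 (tRNA-Phe-3-1-/-), which also overlapped WT. With 1 read of Cyp2b9, tRNA-Phe-2-1-/- replicate C lay among the tRNA-Phe-1-1-/- livers. Cyp2b13, also a gene of female mice, had 0 to 1.98 normalised counts in WT and none in tRNA-Phe-1-1-/- livers, at or under the limit of detection in both. The log2 fold changes of Cyp2b9 and Cyp2b10 in tRNA-Phe-2-1-/- livers were -4.25 ± 1.34 and -2.85 ± 1.20, which did not pass (adjusted p = 0.199 and 0.304).

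The Cyp2c genes oxidise arachidonic acid, drugs and bile acids, and 13 of 15 were tested. All 13 lie on chromosome 19, Cyp2c55 at 39006940 to 39042690 and Cyp2c29 at 39287044 to 39330713. Cyp2c55, which forms hydroxylated arachidonic acid and is inducible through CAR and PXR, had 302, 757 and 751 normalised counts in WT livers, set against 50.8, 28.2 and 47.1 in tRNA-Phe-1-1-/- livers. These groups were far apart (log2 fold change -3.74 ± 0.45, adjusted p = 0.00041). The tRNA-Phe-2-1-/- livers, at 248, 235 and 218, were also below every WT liver, though this difference did not pass (-1.25 ± 0.45, adjusted p = 0.246). Against the livers of tRNA-Phe-2-1-/- and those of tRNA-Phe-3-1-/- Cyp2c55 was lower in tRNA-Phe-1-1-/- livers, with -2.49 ± 0.45 and -2.81 ± 0.45 on the log2 scale (adjusted p = 0.00419 and 0.00238).

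Cyp2c29 had 39811, 38535 and 37973 normalised counts in WT livers, one of the narrowest ranges of any member, and 20115, 16432 and 23704 in tRNA-Phe-1-1-/- livers. The log2 fold change was -0.96 ± 0.16 (adjusted p = 0.00268), and the gene was below every liver of all 3 other groups. Cyp2c38, named after its values were seen, fell by 1.43 on the log2 scale (adjusted p = 0.0095). Cyp2c70 went in the opposite direction without passing, with 16165, 12223 and 14266 in WT against 20315, 22618 and 24208 in tRNA-Phe-1-1-/- livers (0.66 ± 0.28, adjusted p = 0.129). Its 3 tRNA-Phe-1-1-/- livers stood above every WT liver. In the comparison with tRNA-Phe-3-1-/- livers Cyp2c70 passed without tRNA-Phe-3-1-/- replicate C (1.12, adjusted p = 0.00238, against 0.71, adjusted p = 0.109, with it). The liver left out had 24417, the level of the tRNA-Phe-1-1-/- livers, so that fit cannot decide on a difference. Cyp2c67 differed by 0.12 ± 0.22 (adjusted p = 0.763). The other 8 tested Cyp2c genes had log2 fold changes between -0.78 and 0.36 and did not pass.

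Cyp2a5 encodes the coumarin 7-hydroxylase and its neighbour Cyp2a4 a testosterone 15-alpha-hydroxylase of female mice. They are close copies on chromosome 7, and the 250 bases before their starts are shown because the genes behaved differently over the livers. The sequences are those of RefSeq for GRCm38.p6 at chr7:26306942-26307191 and chr7:26835089-26835338, both on the plus strand, with capitals marking the bases that differ in their alignment or lie beyond its ends.
Cyp2a4: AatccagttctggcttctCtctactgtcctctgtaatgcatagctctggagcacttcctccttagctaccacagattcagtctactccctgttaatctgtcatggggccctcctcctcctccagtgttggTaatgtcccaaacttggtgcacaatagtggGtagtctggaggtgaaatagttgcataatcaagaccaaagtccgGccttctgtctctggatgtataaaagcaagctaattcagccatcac
Cyp2a5: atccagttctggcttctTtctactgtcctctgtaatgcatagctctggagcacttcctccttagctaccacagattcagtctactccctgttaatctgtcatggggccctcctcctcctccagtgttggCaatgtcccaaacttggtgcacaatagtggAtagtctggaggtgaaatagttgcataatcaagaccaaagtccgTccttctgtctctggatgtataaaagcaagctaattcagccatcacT
Of 251 aligned columns 245 were identical, 4 differed and 2 were end gaps. Both sequences contain TATAAA and neither contains AGGTCA.

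Cyp2a5 had 3728, 7182 and 4414 normalised counts in WT livers, set against 11125, 18462 and 13256 in tRNA-Phe-3-1-/- livers, all 3 above the highest of the 9 other livers. It was the only member called in that line, where 0.883% of all genes were called (log2 fold change 1.51 ± 0.28, adjusted p = 0.038). The call was lost without WT replicate A, WT replicate C, or replicate B or C of tRNA-Phe-3-1-/-, with an adjusted p of up to 0.155. The tRNA-Phe-1-1-/- livers, with 3991, 3163 and 5299, were lower than these by a log2 fold change of -1.78 ± 0.28 (adjusted p = 0.00221).

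Cyp2a4 did not follow its neighbour. It had 7.82, 3514 and 1612 normalised counts in the WT livers, 6.59, 228 and 4.09 in tRNA-Phe-1-1-/- livers, 12.8, 3.26 and 0.922 in tRNA-Phe-2-1-/- livers, and 1535, 34.9 and 5.03 in tRNA-Phe-3-1-/- livers. The highest WT liver thus held 450 times the count of the lowest, and no comparison passed (tRNA-Phe-1-1-/- against WT, -4.15 ± 2.41, adjusted p = 0.265). As a share of the sum of both genes, Cyp2a4 gave 0.209%, 32.8% and 26.8% in WT livers and 12.1%, 0.189% and 0.0379% in tRNA-Phe-3-1-/- livers. The 3 livers with the highest shares carried the letters B, C and A. About 14.7% of the windows of Cyp2a4 occur in Cyp2a5, so a share below 1% may hold reads of the other gene. Cyp2a22, the other member of the subfamily that passed, had 25.4 to 53.2 in WT and 7.94 to 11.3 in tRNA-Phe-1-1-/- livers (-2.05 ± 0.62, adjusted p = 0.0414). It kept its call in only 1 of the 6 fits that left out a liver of these groups and lost it in 8 of 17 alternatives, with an adjusted p of up to 0.136.

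Cyp2j9, which hydroxylates arachidonic acid and is known from the brain (chromosome 4, 96568424 to 96592523), had 743, 754 and 502 normalised counts in WT livers, set against 244, 152 and 240 in tRNA-Phe-1-1-/- livers. The 9 other livers all lay above 500. The log2 fold change was -1.66 ± 0.22 (adjusted p = 0.000634), and it was -2.04 ± 0.22 against tRNA-Phe-2-1-/- livers (adjusted p = 0.00025). Cyp2u1, a fatty acid hydroxylase (chromosome 3, 131290491 to 131304157), was steady in WT livers, at 3618, 3438 and 3641, and lower at 2472, 1715 and 1929 in tRNA-Phe-1-1-/- livers (-0.82 ± 0.21, adjusted p = 0.0208). This call was lost in 5 of the 6 fits that left out a liver of these groups, with an adjusted p of up to 0.0673. Cyp2r1, a vitamin D 25-hydroxylase, and Cyp2j5, an epoxygenase, fell by 0.34 and 0.25 on the log2 scale (adjusted p = 0.049 and 0.0438), and each kept its call in only 1 of those 6 fits. Cyp2j6 differed by 0.05 ± 0.19 (adjusted p = 0.899).

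Members of other subfamilies did not pass in any of the 3 lines against WT. Cyp2e1 had 88988, 65360 and 65799 normalised counts in WT livers, 115037, 47147 and 144176 in tRNA-Phe-1-1-/- livers and 141529, 128463 and 148631 in tRNA-Phe-2-1-/- livers. The last group lay above every WT liver (0.94 ± 0.37, adjusted p = 0.282), while tRNA-Phe-1-1-/- overlapped WT on both sides (0.34 ± 0.37, adjusted p = 0.571). Cyp2d9 had 49008, 22163 and 26523 in WT and 39132, 11123 and 42062 in tRNA-Phe-1-1-/- livers, with the lowest value in replicate B (-0.22 ± 0.49, adjusted p = 0.804). The 7 tested Cyp2d genes had log2 fold changes between -0.22 and 1.23 in tRNA-Phe-1-1-/- livers. Cyp2f2 differed by -0.27 ± 0.14 (adjusted p = 0.228). Of the Cyp1 genes, Cyp1a2, which oxidises caffeine and aromatic amines, had 8104, 5616 and 8511 in WT and 7259, 4531 and 6517 in tRNA-Phe-1-1-/- livers (-0.28 ± 0.28, adjusted p = 0.53). Cyp1b1 had 22.6, 106 and 48.1 in tRNA-Phe-1-1-/- against 15.8 to 25.4 in WT livers and did not pass (1.15, adjusted p = 0.104). It passed without tRNA-Phe-1-1-/- replicate A (1.69, adjusted p = 0.0203). That fit left out the only liver of its group within the WT range, so it cannot decide on a rise.

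Grouped by their known regulation, 4 of 6 CAR and PXR targets fell in tRNA-Phe-1-1-/- livers (Cyp2b10, Cyp2c29, Cyp2c55 and Cyp3a11), where 9.08% of all genes were called lower. The list was chosen with earlier results of these data known, so this count describes and does not test. It does not hold Cyp3a13, which rose. The median of the 6 log2 fold changes was -2.02, and the other 2, Cyp2c37 and Cyp2c50, had -0.23 and -0.39. None of the 3 AhR targets passed (median -0.12). Of 9 genes known for higher levels in females, 4 were tested and 1, Cyp2b9, fell, while Cyp2c40 and Cyp2c69, which share reads, had log2 fold changes of 0.36 and 0.27 and Cyp2a4 one of -4.15, none of which passed. In the livers of the other lines no gene of these groups passed.

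In tRNA-Phe-2-1-/- livers none of the 41 members passed against WT (lowest adjusted p = 0.185, for Cyp2g1, named after its values were seen). There were 10 members with an unadjusted p below 0.05, beside 2365 of all 15856 genes tested. The edgeR test called 0 members and 20 of all 15856 genes. DESeq2 called 3 members and 495 of all 15830 genes. With limma 0.132% of all genes were called in this comparison, and the median log2 fold change was 0.06 over the members and 0.00 over all genes. Cyp2a5 was the 1 member called in tRNA-Phe-3-1-/- livers, where the median over the members was 0.03 and over all genes 0.01. Between tRNA-Phe-3-1-/- and tRNA-Phe-2-1-/- livers no member passed with limma, and 4 had an unadjusted p below 0.05, beside 1059 of all 15856 genes. There edgeR called 0 members and 0 of all genes, and DESeq2 called 2 members and 29 of all 15830 genes. The share of all genes called there with limma was 0%.

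tRNA-Phe-1-1-/- livers were also set against the other lines. Against tRNA-Phe-2-1-/- livers 1 member was higher and 10 were lower (7.37% and 8.53% of all genes), with a median of -0.39 over the members. Against tRNA-Phe-3-1-/- livers 1 was higher and 15 were lower (7.45% and 8.63% of all genes), with a median of -0.41. These comparisons share the tRNA-Phe-1-1-/- livers. The 9 members called in tRNA-Phe-1-1-/- livers against each of the 3 other groups were Cyp2c29, Cyp2c55, Cyp2j5, Cyp2j9, Cyp2r1, Cyp2u1, Cyp3a13, Cyp3a25 and Cyp3a59. Of these, Cyp3a59 lost its call against tRNA-Phe-2-1-/- when any replicate of that line was left out (adjusted p up to 0.0672). The same happened without replicate A or C of tRNA-Phe-1-1-/-. Cyp2u1 lost its call against both lines without replicate B or C of tRNA-Phe-1-1-/- or of the other line (adjusted p up to 0.100). The Cyp2b genes and Cyp3a11 were not among the 9. Cyp2b9 and Cyp2b10 did not pass against tRNA-Phe-2-1-/- (adjusted p = 0.271 and 0.157), and Cyp3a11 did not against tRNA-Phe-3-1-/-. Cyp3a11 passed against tRNA-Phe-2-1-/- (adjusted p = 0.0333), but not when any single liver of these groups was left out (up to 0.100). Against tRNA-Phe-3-1-/- Cyp2b10 and Cyp2b9 passed (adjusted p = 0.0427 and 0.0439). Both lost this call when any single tRNA-Phe-1-1-/- liver, or tRNA-Phe-3-1-/- replicate A or B, was left out (up to 0.135). In the F-test for any difference among the 4 genotypes 17 of the 41 tested members passed, beside 2688 of all 15856 genes (17%). Cyp3a11 passed it with an adjusted p of 0.0462. It lost this call when any single WT, tRNA-Phe-1-1-/- or tRNA-Phe-2-1-/- liver was left out (up to 0.128). The lowest adjusted p were those of Cyp2j9 (0.00049), Cyp3a25 (0.00119), Cyp2c55 (0.0015) and Cyp3a13 (0.00299).

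With all 3 replicates, the WT livers differed more from each other in these genes than in most others, but not without replicate A. The SD of log2(normalised count + 1) over the 3 WT livers had a median of 0.326 over the 41 members and 0.183 over all genes, and 31 of the 41 were above the latter. Among genes whose mean reached 1000 normalised counts, the medians were 0.236 over 26 members and 0.105 over 4537 genes. The higher median over the 41 members rested on 1 liver. Without WT replicate A the median over the members and that over all genes were both 0.132. The SD was 4.70 for Cyp2a4, 2.37 for Cyp2b9, 2.31 for Cyp2b10, 0.987 for Cyp3a59, 0.786 for Cyp2d40 and 0.761 for Cyp2c55. In all of these except Cyp2d40 replicate A was the lowest liver, while Cyp2d40 had 2802, 1146 and 1044 with replicate A the highest. At the other end stood Cyp2j5 with 0.0213, Cyp2a12 with 0.0239 and Cyp2c29 with 0.0349. In the other groups the median over the members was 0.430 (tRNA-Phe-1-1-/-), 0.171 (tRNA-Phe-2-1-/-) and 0.506 (tRNA-Phe-3-1-/-), beside 0.210, 0.152 and 0.218 over all genes.

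**Figure D4:**
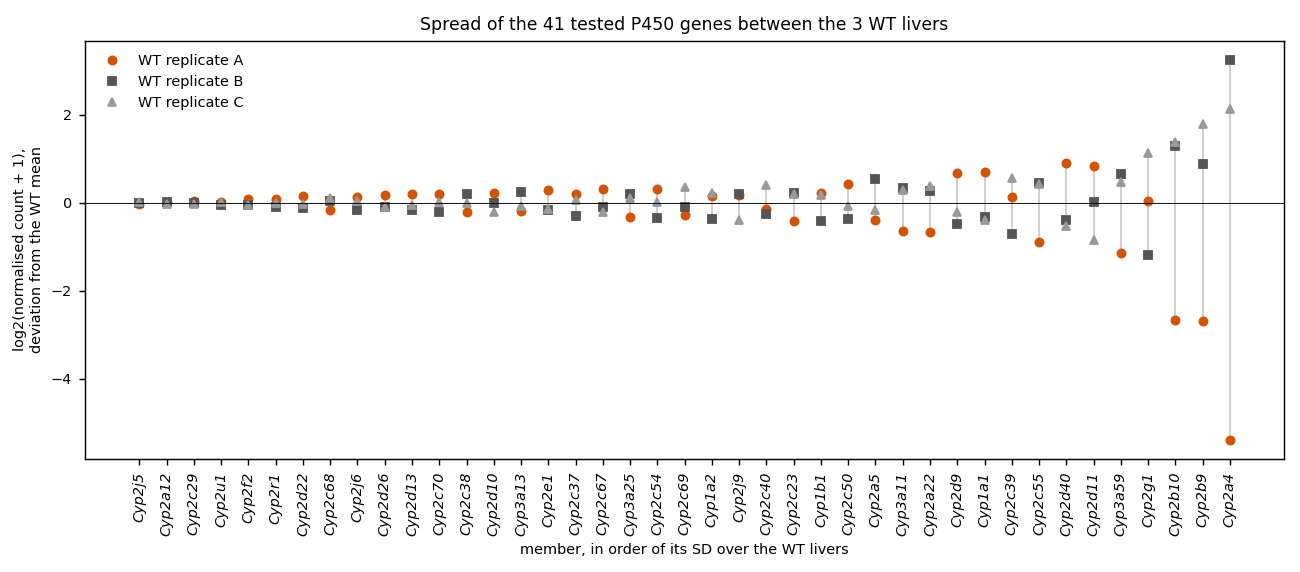
Deviation of each WT liver from the mean of the 3 WT livers, in log2(normalised count + 1), for the 41 tested P450 genes ordered by their SD (x axis). Replicate A lies below the others by far for Cyp2a4, Cyp2b9 and Cyp2b10, and the 3 livers nearly coincide for Cyp2j5, Cyp2a12 and Cyp2c29 at the left.

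Of 14 genes that supply these enzymes with electrons and haem, 1 was called higher and 3 lower in tRNA-Phe-1-1-/- livers. The shares over all genes were 8.27% higher and 9.08% lower. Por, the P450 oxidoreductase, had 3101, 4770 and 3963 normalised counts in WT and 10358, 11852 and 12500 in tRNA-Phe-1-1-/- livers (1.57 ± 0.26, adjusted p = 0.00241). Cyb5b, Pgrmc1 and the haem synthesis gene Alad fell, with log2 fold changes of -0.73, -0.36 and -0.39. Of 22 regulators of P450 genes 6 rose and 3 fell, among them Cebpb (2.09 ± 0.22, adjusted p = 0.000195) and Stat5b (-0.95 ± 0.15, adjusted p = 0.00154), while the genes of PXR (Nr1i2, -0.06 ± 0.13, adjusted p = 0.79) and CAR (Nr1i3, -0.11 ± 0.50, adjusted p = 0.91) did not pass. Gene groups outside the P450 families differed as well. In tRNA-Phe-1-1-/- livers 11 of 14 acute phase genes rose, with summed counts of 1031390 to 1811210 against 746252 to 825083 in WT. Of the clock genes, 6 of 8 in phase with Dbp rose and 5 of 5 in phase with Bmal1 fell, with sums of 10092 to 22202 against 3454 to 5469 and of 3243 to 5175 against 7692 to 8414. Of the zonation markers 2 of 8 pericentral genes rose, and 1 of 8 periportal genes rose and 2 fell. Of the hepatocyte markers 1 of 6 rose, and the summed counts were 3063640 to 3700450 against 3558540 to 4306360 in WT. Both tested markers of neutrophils rose (sum of 4 markers 70.6 to 235, against 7.82 to 33.6 in WT), and 1 of 2 tested lymphocyte markers fell (7.53 to 30.0 against 42.0 to 86.9). Of 4 endothelial markers 1 rose and 1 fell (sum 6727 to 9449 against 9684 to 10780), and 1 of 5 stellate cell markers rose (13400 to 15347 against 13253 to 14773). None of 6 Kupffer cell markers and none of 4 cholangiocyte markers passed. The part of these differences in the P450 values was not tested.

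In the brain, 13 members reached a mean of 10 normalised counts, 11 of them also in the liver, and 16 had no read in any brain. The 62 genes gave 0.00731% to 0.0106% of all counts. Per kilobase of exon, the order in WT brains was Cyp2j6 at 176 ± 26.2 normalised counts per kilobase (SD, n = 3), Cyp2j9 at 153 ± 34.4, Cyp2d22 at 90.5 ± 4.05, Cyp2u1 at 75.5 ± 8.66, Cyp2s1 at 24.8 ± 4.27 and Cyp1b1 at 12.2 ± 4.92. Cyp2j6 and Cyp2j9 differed by less than their spread, and so did Cyp1b1 and the next gene, Cyp2e1. Cyp2d22, the counterpart of the human drug-oxidising CYP2D6, exceeded Cyp2u1 by more than either SD.

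No member passed against WT in the brain of any line. In tRNA-Phe-1-1-/- brains 5 members had an unadjusted p below 0.05, beside 3063 of all 19228 genes tested. Both edgeR and DESeq2 called 0 members, beside 187 and 874 of all genes, and 1.05% of all genes were called with limma. In tRNA-Phe-2-1-/- brains 0 members and 1071 of all genes had such a p. Both count tests called 0 members there, beside 0 (edgeR) and 21 (DESeq2) of all genes. In tRNA-Phe-3-1-/- brains 1 member and 2373 of all genes had such a p. There edgeR called 0 members and 0 of all genes, and DESeq2 called 1 member and 373 of all 19187 genes. The share of all genes called with limma was 0% in each of the last comparisons. Cyp2j9, lower in tRNA-Phe-1-1-/- livers, had 936, 593 and 758 normalised counts in WT brains and 725, 903 and 874 in tRNA-Phe-1-1-/- brains, which overlapped (0.15 ± 0.19, adjusted p = 0.76). No test was made between the tissues, which were normalised separately. Cyp2d22 had 471, 438 and 436 in WT and 567, 603 and 607 in tRNA-Phe-1-1-/- brains without overlap, yet it did not pass (0.40 ± 0.12, adjusted p = 0.15). Cyp2j6 lay lower without overlap, with 832, 680 and 628 against 552, 489 and 501 (-0.46 ± 0.17, adjusted p = 0.222). Cyp1b1 lay higher, with 121, 50.7 and 92.6 against 217, 175 and 138 (1.06 ± 0.32, adjusted p = 0.142).

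The liver-rich members were close to 0 in the brain and uneven between samples. Cyp3a11 had 53.9, 15.9 and 14.7 normalised counts in WT brains, 14.9, 0 and 1.00 in tRNA-Phe-1-1-/- brains, 24.6, 20.1 and 65.0 in tRNA-Phe-2-1-/- brains and none in the 3 tRNA-Phe-3-1-/- brains, where 3 reads are 2.62 to 3.23 normalised counts. The limma values of the tRNA-Phe-1-1-/- brains and those of the tRNA-Phe-3-1-/- brains against WT did not pass (adjusted p = 0.155 and 0.154). The former passed without tRNA-Phe-1-1-/- replicate A (-4.11, adjusted p = 0.0336). That fit left out the only tRNA-Phe-1-1-/- brain within the WT range, so it cannot decide on a difference. Albumin, a hepatocyte gene and no member, varied in the same brains, with 625, 227 and 140 in WT, 851, 5.20 and 36.1 in tRNA-Phe-1-1-/-, 310, 599 and 877 in tRNA-Phe-2-1-/- and 3.23, 9.60 and 36.5 in tRNA-Phe-3-1-/- brains. The sum of the 6 hepatocyte markers, among them Ttr and Trf, which cells of the brain also express, ran from 5467 to 65478 over the 12 brains. The sum of 3 choroid plexus markers, which also include Ttr, ran from 104 to 51390. Both sums were highest in tRNA-Phe-2-1-/- replicate C, so the hepatocyte sum is no measure of liver RNA alone. Cyp2e1 had 65.9, 15.9 and 15.8 in WT brains, and 105 in tRNA-Phe-1-1-/- replicate A against 1.04 and 5.01 in its other replicates. The part of liver RNA in these brain values was not tested.

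**Figure D5:**
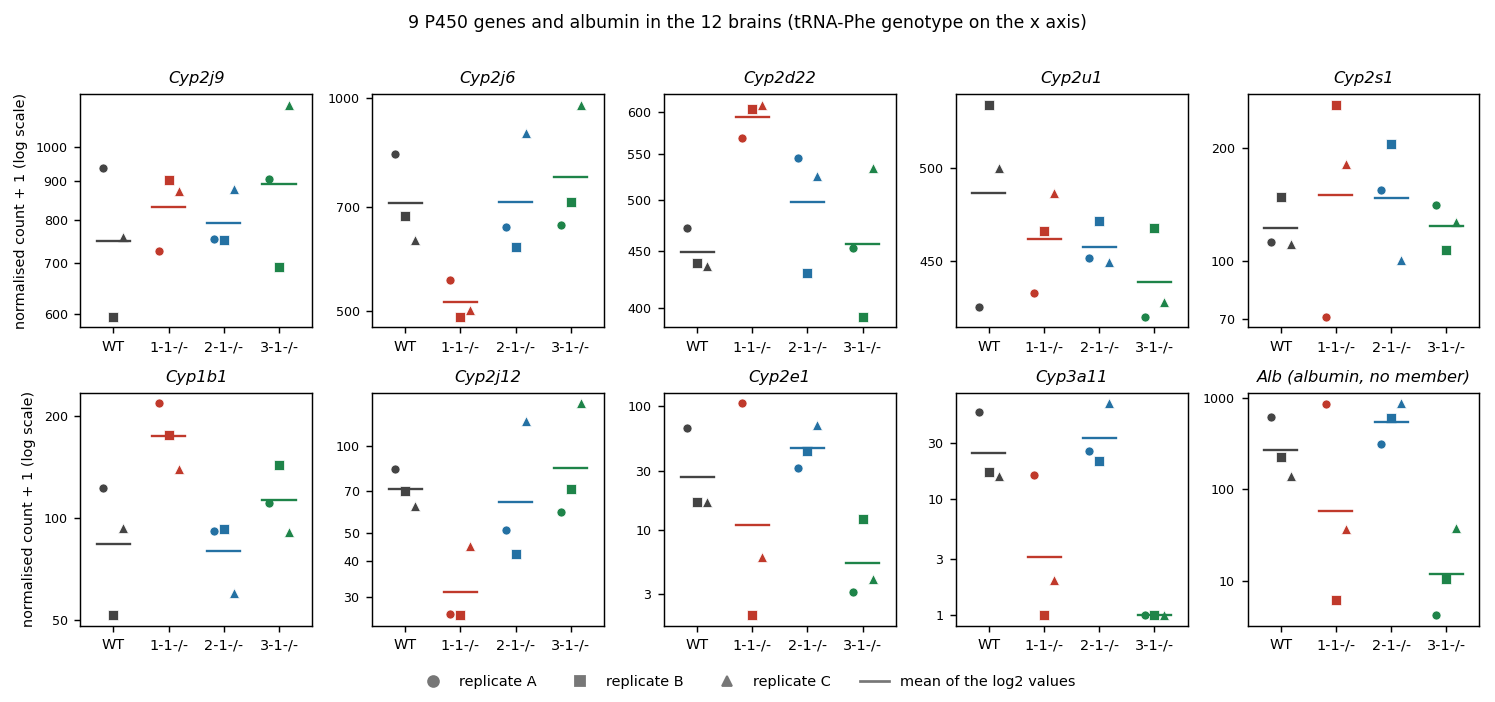
Normalised counts + 1 of 9 P450 genes and of albumin in the 12 brains, 1 panel per gene (y axis logarithmic with its own range; x axis, tRNA-Phe genotype; points, replicates; lines, means of the log2 values, n = 3). The tRNA-Phe-1-1-/- brains lie above the WT brains for Cyp2d22 and Cyp1b1 and below them for Cyp2j6 and Cyp2j12 without passing the test, and Cyp3a11 is at 0 in all 3 tRNA-Phe-3-1-/- brains.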

How the data were processed

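RNA-seq of total liver and brain RNA was analysed from 24 samples (4 genotypes, 2 tissues, 3 replicates), with the groups read from their titles. According to the methods of the study, reads were trimmed by the authors with Trim Galore and cutadapt, aligned with STAR to GRCm38.p6, and the authors estimated transcript abundance with Salmon in strand-aware mode with sequence and GC bias correction, and normalised each tissue with DESeq2 after tximport. The deposited values are normalised counts, a signal in which every read estimate of a sample is divided by one size factor by the authors. Salmon divides reads between close copies. For 9 members at least 10% of the 100-base windows of their transcripts occur in another P450 gene (Cyp3a41a, Cyp3a41b, Cyp2c69, Cyp2c40, Cyp2c67, Cyp2c68, Cyp2a5, Cyp2a4 and Cyp2d11), so their single values are uncertain. The deposited comparison tables, with the authors' fold changes and p-values, were not used. Size factors rest on most genes being equal between samples.

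For each tissue a separate model was fitted with limma 3.58.1 in R 4.3.3 on log2(normalised count + 1), with all 12 samples, a variance trend and genotype as the only term. Genes whose mean reached 10 normalised counts were tested, two-sided, with Benjamini-Hochberg adjustment over all genes of a comparison and a threshold of 0.05. Fold changes are on this log2 scale, which understates changes of low genes. All values above 0 (100%) were whole reads within 0.01 of a read after division by the step of the column, and these recovered reads gave the depth and the tests with edgeR 4.0.16 and DESeq2 1.42.0 as alternatives. Per the methods, RNA came from separate mice, but the labels do not name the animals. The spread is described by the SD over 3 replicates. No replicates agreed within sampling noise. Other alternatives were pseudocounts of 0.1 and 5, no filter or a mean of 50, quantile and trimmed mean scaling, other variance priors, the replicate letter as a block, only the groups compared, and leaving out each replicate. The procedure was tested on simulated data with the same dispersion for every gene and no outlying samples. That simulation does not show how the procedure handles livers that stood apart from their group.

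Symbols matched 93.2% of the identifiers, and positions and promoters are those of RefSeq for GRCm38.p6, which held 53 of 62 members. Exon lengths were summed over the exons of each gene. Members, lists, tests and the rule for named genes were chosen with earlier results of these data known. That rule took, among members with a mean of at least 50, up to 6 of the largest rises and falls past the threshold for each line in the liver and the 6 largest WT spreads, and also the 8 highest WT levels per kilobase, the 6 lowest p of the F-test, the 6 highest brain levels and 12 members whatever their values (Cyp1a2, Cyp2a4, Cyp2a5, Cyp2b9, Cyp2b10, Cyp2b13, Cyp2c29, Cyp2d9, Cyp2e1, Cyp2f2, Cyp3a11 and Cyp3a41a).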

Additional observations from a re-analysis of the deposited data

How the results depend on the processing

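Of the 14 members called in tRNA-Phe-1-1-/- livers against WT, 9 passed under all 18 alternatives (Cyp2b9, Cyp2b10, Cyp2c29, Cyp2c38, Cyp2c55, Cyp2j9, Cyp3a13, Cyp3a25 and Cyp3a59). Over the 14 genes, 216 of 251 alternative values kept the call, 35 lost it and 0 changed sign. Leaving out one liver at a time gave 9 to 12 called members in this comparison (9 without WT replicate C), 5 to 8 against tRNA-Phe-2-1-/- (5 without tRNA-Phe-2-1-/- replicate B or C, 7 without its replicate A or without tRNA-Phe-1-1-/- replicate A or B), 10 to 16 against tRNA-Phe-3-1-/- (10 without tRNA-Phe-1-1-/- replicate B or tRNA-Phe-3-1-/- replicate B), 0 to 2 in tRNA-Phe-3-1-/- against WT (2 without tRNA-Phe-3-1-/- replicate A, with Cyp2c37 added), 9 to 20 in the F-test (9 without WT replicate B or C, 10 without tRNA-Phe-1-1-/- replicate B, 11 without tRNA-Phe-1-1-/- replicate A or tRNA-Phe-2-1-/- replicate B or C) and a median WT spread of 0.132 to 0.352 (0.132 without replicate A). In the brain it gave 0 to 1 for tRNA-Phe-1-1-/- against WT (Cyp3a11, without tRNA-Phe-1-1-/- replicate A, where 163 of all genes were called). Over all genes, the fits without 1 liver called 1473 to 2559 in tRNA-Phe-1-1-/- against WT, beside 2751 with every liver. Against tRNA-Phe-2-1-/- they called 1149 to 2572, beside 2521, and against tRNA-Phe-3-1-/- 1512 to 2474, beside 2550. In tRNA-Phe-3-1-/- against WT they called 2 to 212, beside 140, and in the F-test 1352 to 2729, beside 2688. Without the variance trend the F-test called 10 members and tRNA-Phe-3-1-/- against WT 0, beside 2071 and 33 of all genes. With only the groups compared, tRNA-Phe-3-1-/- against WT gave 0, tRNA-Phe-1-1-/- against tRNA-Phe-3-1-/- 8 and tRNA-Phe-2-1-/- against WT 2 (Cyp2e1 and Cyp2c37). Over all genes these fits called 9, 952 and 175. DESeq2 called 3 in tRNA-Phe-2-1-/- against WT (Cyp2c55, Cyp2b9 and Cyp2a4), 2 between tRNA-Phe-3-1-/- and tRNA-Phe-2-1-/- (Cyp2a5 and Cyp2g1) and 1 in tRNA-Phe-3-1-/- brains (Cyp3a11, -7.29, adjusted p = 0.00213). Over all genes it called 495, 29 and 373 in these comparisons. The cause of these changes in the number of members called was not tested. Fits that left out a liver also had fewer samples.

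The labels do not say whether the replicate letters pair the samples. The correlation of the deviations of samples with the same letter ran from -0.29 to 0.24 in the liver and from -0.16 to 0.49 in the brain. It exceeded 0.1 in 3 of 18 such pairs in the liver and 7 of 18 in the brain. Correlations between different letters are not given here, so these values do not decide on pairing. With the replicate letter as a block, the liver calls were 12 for tRNA-Phe-1-1-/-, 0 for tRNA-Phe-2-1-/- and 0 for tRNA-Phe-3-1-/- against WT, 10 for tRNA-Phe-1-1-/- set beside tRNA-Phe-2-1-/-, 12 for tRNA-Phe-1-1-/- set beside tRNA-Phe-3-1-/-, and 12 in the F-test. Over all genes the block fits called 2347, 1, 9, 2128, 2151 and 2028 in the same order. Of the 21 members under a mean of 10 normalised counts, which the filter left out, 9 had no read in any liver.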

Other observations

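Of the 25 pseudogenes with a symbol of these families, 5 reached a mean of 10 normalised counts in the liver. The most abundant were Cyp2d37-ps (mean 3583) and Cyp2d38-ps (mean 1184), both in the Cyp2d group on the annotation's names. Their lowest values of all 12 livers were in tRNA-Phe-1-1-/- replicate B, with 1449 and 374 normalised counts, the liver in which Cyp2d9 was also lowest. Cyp2d41-ps had 29.3, 5.93 and 13.0 normalised counts in WT livers, compared with 193, 17.6 and 136 in tRNA-Phe-1-1-/- livers, which overlapped (2.47 ± 0.84, adjusted p = 0.0653). None of the 5 passed against WT in any line.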
